A study of Mus musculus with 12 samples.

Results

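The genes described here encode splicing factors, heterogeneous nuclear ribonucleoproteins (hnRNPs) and DEAD-box RNA helicases. They were picked by symbol: Snrp, Sf3a or Sf3b, Hnrnp, Srsf, U2af, Prpf, Lsm or Ddx at the start of the name, followed by a number where the family is numbered, with the older spellings Hnrp and Sfrs also searched. The rule finds 75 of the 9212 genes measured, read by 85 probes, and uses no measured value, although the gene family was taken up with earlier results of these data known. The families held 11 Snrp, 6 Sf3, 2 U2af, 6 Prpf, 5 Lsm, 8 Srsf, 18 Hnrnp and 19 Ddx genes. The Ddx name covers helicases of ribosome assembly, RNA decay, germ cells and antiviral defence as well as of splicing, so this family is wider than the others in what its members do.

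Introns are cut from pre-messenger RNA by the spliceosome, which is built anew on each intron from small nuclear ribonucleoproteins (snRNPs). Sm proteins form a ring on most of the small nuclear RNAs, Lsm proteins form the matching ring on U6, and SF3 and U2AF proteins help U2 settle on the branch site. SR proteins (Srsf genes) mostly favour the use of exons they bind, whereas many hnRNPs coat nascent RNA and can hide splice sites, and the balance between the groups sets which exons a cell keeps. Embryonic stem (ES) cells and their differentiated offspring are known to splice many genes differently.

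The study let mouse ES cells differentiate at random and compared them with what they became over time. Every one of the 12 arrays held RNA of undifferentiated R1 ES cells, kept on gelatin with leukemia inhibitory factor, in 1 channel. The other channel held RNA of embryoid bodies (EB), cell aggregates that form many tissues at once, which had been taken apart and grown on dishes with serum for 4, 8, 15 or 21 days. Each day had 3 arrays, and no other genotype, agent or treatment is named for any group. R1 is a single ES line, the EB cultures are mixtures of cell types, and the labels do not tell if arrays of a day were separate cultures, so p-values measure only how far these arrays scatter, and part of that scatter may be technical. In such bulk RNA, fewer cells of a type and less RNA per cell cannot be told apart.

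Values are the deposited normalized log ratios, read as log2, so that a value of 1 stands for a 2-fold difference; base 2 is a convention the labels do not settle. Positive values are taken to mean more RNA in EB. That sign is likely rather than certain: the labelling protocols give the red dye to EB, while titles and dye fields point the other way, and the 10 measured markers of undifferentiated ES cells had a median of -1.73 at day 21 (9 lower) beside 2.52 for 7 visceral endoderm and fetal liver markers (7 higher). Were the sign opposite, each "higher" and "lower" below would be exchanged and no count or p-value would move. Dyes were never swapped, so a dye effect of a gene remains in each ratio to ES. "Called" means an adjusted p under 0.05 in limma's moderated test over all 10689 features, and the tests against ES leave out the spread of the ES control. Errors given as ± are SDs over the 3 arrays of a day (n = 3). Where a call was lost without an array, for the 29 calls of the 75 genes and for the calls named in other lists, the brackets give the lowest and highest value and the highest adjusted p over the omission of each of the 12 arrays.

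Arrays differed in a way their labels do not record. On 96 features with no gene name, placed at fixed positions, the median was between -0.31 and 0.06 on 7 arrays (set 1) and between -1.54 and -1.04 on the other 5 (set 2: day 4 array 3, day 8 arrays 2 and 3, day 15 array 3 and day 21 array 3). Every day had arrays of both sets, with 1 array of day 8 in set 1, and counts from set 1 alone are given beside the main counts. A fit of the 5 set 2 arrays alone, in which 3 of the 4 days have 1 array, lost all 29 calls described below. Day 4 array 2 also stood apart for these genes, with a median of -0.06 over the 75 where arrays 1 and 3 of that day had 0.13 and 0.12. Nearly identical family members can share signal on a probe, and probe sequences were not used here.

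Promoters were read for 65 of the 75 genes from RefSeq (GRCm38.p6), 250 bases before to 50 after the start, 1 per gene. They held more CG pairs than most, a median of 25 against 17 for 7259 promoters of genes on the array. The letters CCGGAAG, a core bound by ETS-family factors, were found on either strand in 20 of the 65 (30.77%), against 12.8% of array genes and 9.12% of all 27025 promoters. The E-box CACGTG was in 8 (12.31%, against 9.41% of array genes), AAGATGGC, a core of the factor YY1, in 2 (3.08% against 3.49%) and TATAAA in 6 (9.23% against 11.34%). These are matches of letters, and differences in CG content between the sets were not adjusted for. Below are 5 promoters, all on the plus strand, of genes called against ES at day 21, with any match in capitals. Snrpa1 at chr7:66060086-66060385 and Hnrnpr at chr4:136310692-136310991 (the first listed for Hnrnpr, which has 2) hold none of the 4 motifs. They are 2 of the 3 genes whose call against ES at day 21 was kept without each of the 12 arrays. Hnrnpa3 at chr2:75659009-75659308, lower at days 15 and 21, has the E-box 18 bases before the start. Ddx39b at chr17:35241496-35241795, higher at both days, has the ETS-type letters 24 bases before and 40 after the start, and Ddx55 at chr5:124552614-124552913, lower at day 21, has them 11 bases before it. Of called genes not printed, Hnrnph1, Ddx52 and Ddx56 held none of the 4 motifs, while Srsf4 and Hnrnpf had matches.
Snrpa1: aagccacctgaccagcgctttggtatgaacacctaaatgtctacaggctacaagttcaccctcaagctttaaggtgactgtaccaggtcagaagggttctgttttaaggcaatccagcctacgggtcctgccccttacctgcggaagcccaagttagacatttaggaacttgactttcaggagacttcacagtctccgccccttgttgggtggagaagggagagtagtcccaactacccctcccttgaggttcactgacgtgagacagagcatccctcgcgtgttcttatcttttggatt
Hnrnpr: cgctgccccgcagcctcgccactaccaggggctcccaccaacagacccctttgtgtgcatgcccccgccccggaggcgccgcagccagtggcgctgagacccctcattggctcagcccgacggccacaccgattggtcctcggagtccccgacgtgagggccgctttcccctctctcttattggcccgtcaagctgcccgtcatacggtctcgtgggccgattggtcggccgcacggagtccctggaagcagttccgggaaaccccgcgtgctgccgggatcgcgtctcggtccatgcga
Hnrnpa3: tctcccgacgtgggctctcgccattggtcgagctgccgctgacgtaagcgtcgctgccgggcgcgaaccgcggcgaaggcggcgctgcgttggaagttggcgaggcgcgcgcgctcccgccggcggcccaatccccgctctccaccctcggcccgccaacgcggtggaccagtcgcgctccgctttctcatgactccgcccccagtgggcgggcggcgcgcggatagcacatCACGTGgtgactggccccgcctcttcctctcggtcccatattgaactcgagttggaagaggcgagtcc
Ddx39b: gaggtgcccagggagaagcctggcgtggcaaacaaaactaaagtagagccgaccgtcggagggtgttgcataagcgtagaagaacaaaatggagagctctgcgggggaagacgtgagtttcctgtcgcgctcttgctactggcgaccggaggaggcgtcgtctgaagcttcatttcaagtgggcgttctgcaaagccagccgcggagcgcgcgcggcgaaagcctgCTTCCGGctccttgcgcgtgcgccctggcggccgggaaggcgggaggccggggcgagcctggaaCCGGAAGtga
Ddx55: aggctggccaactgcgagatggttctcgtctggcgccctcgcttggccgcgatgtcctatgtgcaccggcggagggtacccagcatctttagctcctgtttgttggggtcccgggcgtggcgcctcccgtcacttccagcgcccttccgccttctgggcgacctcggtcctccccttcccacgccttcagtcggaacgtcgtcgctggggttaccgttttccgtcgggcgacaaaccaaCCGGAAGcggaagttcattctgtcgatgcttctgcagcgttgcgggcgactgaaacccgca

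The splicing genes moved little. Of the 75, 0 reached a mean of 1 in size at days 4, 8, 15 or 21, where 0.0655%, 0.72%, 1.23% and 1.84% of all features did. A mean of 0.5 in size was reached by 0, 1, 2 and 4 of them at those days, against 1.9%, 4.32%, 7.47% and 9.97% of all features. The largest day mean was that of Lsm4 at day 21, -0.64. The median size of the day 21 means was 0.14 over the 75 genes and 0.15 over all features, and their interquartile range was 0.25 against 0.31. The median standard error of a day mean was 0.10.

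Counts of called genes stayed close to the share called over the whole array. At day 4, 0 of 75 were called by limma, as were 0% of all features. An unadjusted p under 0.05 was found for 13 of the 75, beside 1081 of the 10689 features. After quantile normalization 5 genes, all higher, passed, beside 1.28% of all features under that setting. At day 8, 1 gene was called (1.33%, beside 2.28% of all features), 0 higher (beside 1.23%) and 1 lower (beside 1.06%), and 1 higher gene joined it when arrays were scaled to an equal spread, beside 5.44% of all features called. At day 15, 8 genes were called (10.7%, beside 10.6% of all features), 3 higher (4%, beside 5.66%) and 5 lower (6.67%, beside 4.9%). At day 21, 12 were called (16%, beside 18.7%), 5 higher (6.67%, beside 8.78%) and 7 lower (9.33%, beside 9.93%).

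The counts leaned on single arrays, as did the share of all features called. At day 15, 0 genes were called without array 2 of that day (beside 2.2% of all features), 1 without array 1 (beside 2.87%) and 12 without day 4 array 2 (beside 11.4%). At day 21 the count was 3, 5 and 6 without arrays 1, 2 and 3 of that day (beside 7.04%, 8.16% and 16.9%). Set 1 alone gave 10 calls at day 15 (beside 16.3%), of which 6 were among the 8, and 8 at day 21 (beside 20.2%), of which 7 were among the 12. Quantile normalization gave 1 higher and 5 lower at day 15 (beside 7.26% of all features called), and 1 higher and 3 lower at day 21 (beside 9.99%).

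**Figure D1:**
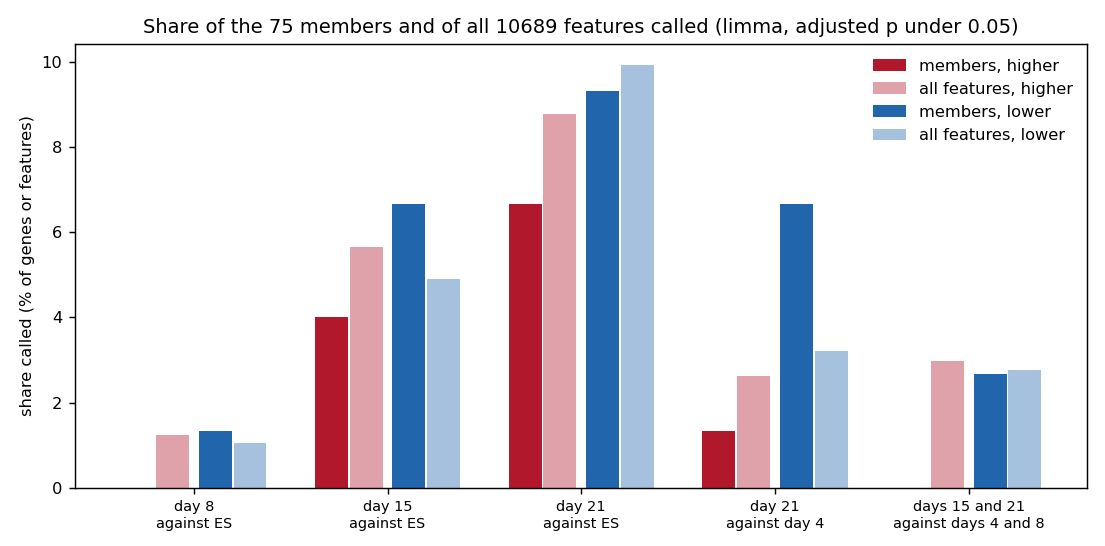
Share of genes called (y axis, percent) in 5 comparisons (x axis), higher in red and lower in blue, with dark bars for the 75 splicing genes ("members") and light bars for all 10689 features. Both shares were larger at day 21 than at day 8, and at day 21 the splicing genes reached 6.67% higher and 9.33% lower beside 8.78% and 9.93% of all features.

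The median of the 75 means was 0.08 at day 4, -0.07 at day 8, -0.01 at day 15 and -0.08 at day 21, while the median of all features stayed between 0.00 and 0.01. The day 4 median was 0.1256 without array 2 of that day and 0.1244 after quantile normalization, and the day 15 median was 0.0099 without array 2 of its day and 0.0046 without array 3, so its sign rests on single arrays. On single arrays of day 21 it was -0.08, -0.08 and -0.07, and on those of day 4 it was 0.13, -0.06 and 0.12. All 3 arrays were below 0 at day 21 for 31 genes (41.3%, against 26.6% of all features) and above 0 for 10 (13.3%, against 27.8%). At day 4 the order was the other way, with 18 genes above 0 on all 3 arrays (24%, against 14.8%) and 3 below (4%, against 15.4%). At day 8 the numbers were 13 above (17.3%, against 22.2%) and 23 below (30.7%, against 21.9%), and at day 15 they were 16 above (21.3%, against 24.4%) and 18 below (24%, against 23.3%).

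At day 21 minus day 4, 56 of the 75 differences were negative (74.7%, against 48.6% of all features), with a median of -0.16 against 0.01. The day 21 arrays lay wholly below the day 4 arrays for 18 genes (24%, against 12.2%) and wholly above them for 3 (4%, against 12.6%). Within set 1 the medians of the 75 went from 0.13 and -0.06 at day 4 to -0.08 and -0.08, and within set 2 from 0.12 to -0.07. Day 4 array 2 was thus the 1 array of its day near the day 21 level. Markers of dividing cells moved over the same days: of 9 measured, 0 were called at day 4, 4 were lower at day 15 and 8 at day 21, with medians of -0.03, -0.13, -0.31 and -0.52 over the 4 days and array medians between -0.55 and -0.38 at day 21. On day 4 array 2 those markers had a median of -0.18, against 0.02 and 0.18 on arrays 1 and 3. Their part in the values of the splicing genes was not tested.

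**Figure D2:**
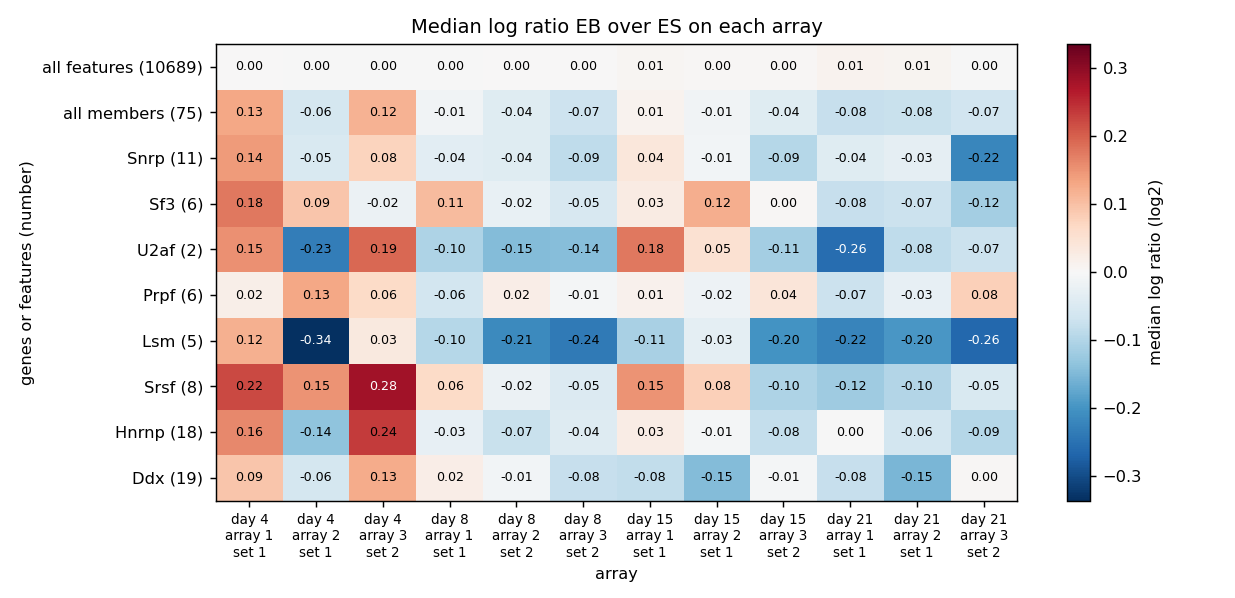
Median log2 ratio EB over ES on each of the 12 arrays (columns, with day, array number and array set) for all features, the 75 splicing genes ("all members") and each family (rows), with red above and blue below 0. The row of the 75 genes holds 0.13, -0.06 and 0.12 at day 4 and -0.08, -0.08 and -0.07 at day 21, and the row of all features stays within 0.01 of 0.

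Of the 11 Snrp genes, which encode proteins of snRNPs, 1 was called against ES, Snrpa1, at each of days 8, 15 and 21 (beside 2.28%, 10.6% and 18.7% of all features). The family median was 0.11 at day 4 (3e-04 without array 1 of that day, 0.1956 without array 2 and 0.2755 after quantile normalization) and -0.07 at day 21 (-0.0353 without array 3). Snrpa1, which encodes the A-prime protein of the U2 snRNP, had 0.10, -0.17 and 0.12 on arrays 1, 2 and 3 of day 4, -0.41, -0.39 and -0.26 at day 8, -0.32, -0.39 and -0.29 at day 15 and -0.44, -0.56 and -0.68 at day 21. All 9 arrays from day 8 on lay below the 3 arrays of day 4. It was lower than ES at day 8 (mean -0.36 ± 0.08, adjusted p = 0.0376), at day 15 (-0.33 ± 0.05, adjusted p = 0.0196) and at day 21 (-0.56 ± 0.12, adjusted p = 5.68e-04). The day 21 call was kept without each of the 12 arrays and on set 1 alone (-0.50, adjusted p = 0.0126). The day 15 call was lost without day 15 arrays 1 or 2 (-0.35 to -0.30, adjusted p up to 0.162). The day 8 call was lost without day 4 array 1, day 8 arrays 1, 2 or 3, day 15 arrays 1 or 2 or day 21 array 2 (-0.40 to -0.33, adjusted p up to 0.169). On set 1 alone the calls of days 8 and 15 were lost too.

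Snrpg encodes a protein of the Sm ring. Its arrays read 0.33, 0.61 and 0.28 at day 4, 0.14, 0.12 and 0.04 at day 8, 0.01, 0.10 and -0.09 at day 15 and -0.04, -0.03 and 0.01 at day 21. The day 4 arrays were all above 0 and above every later array, with a mean of 0.41 ± 0.17 that did not pass against ES (adjusted p = 0.102), and by day 21 the mean was -0.02. The lowest day 21 means among Sm ring genes did not pass: Snrpf had -0.44 ± 0.07 with adjusted p = 0.0597, and Snrpd2 had -0.44 ± 0.12 with adjusted p = 0.0584. Snrpb, Snrpd1, Snrpe and Snrpn had smaller means there, of 0.01, -0.12, 0.04 and 0.01, and were not called. The highest of the family at day 21 was Snrpc, of the U1 snRNP, at 0.04 ± 0.05.

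Among the Lsm genes 4 of 5 had a day 21 mean below day 4, and the family median of -0.24 at day 21 was the lowest of the 8 families, a difference that was not tested. Lsm4, a protein of the ring on U6 and of the related ring that acts in messenger RNA decay, read 0.13, -0.81 and -0.05 at day 4, -0.10, -0.41 and -0.58 at day 8, -0.34, -0.46 and -0.64 at day 15 and -0.69, -0.47 and -0.76 at day 21. It was below 0 on all 9 arrays from day 8 on, but day 4 array 2 was lower than any of them. It was lower than ES at day 21 (mean -0.64 ± 0.15, adjusted p = 0.0117) and missed the threshold at day 15 (-0.48, adjusted p = 0.061). The day 21 call was lost without day 21 arrays 1 or 3 (-0.72 to -0.58, adjusted p up to 0.0811), on set 1 alone and under both rescalings of the arrays (quantile normalization and equal spread). Lsm1, part of the decay ring and named after its values were seen, read -0.11, -0.33 and -1.38 at day 15, so its mean there of -0.61 rests on array 3. At the other end, Lsm6 had -0.01 ± 0.08 at day 21.

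The proteins that settle U2 on the intron and those of the later tri-snRNP gave few calls. Of the 6 Sf3 genes limma called 0 at any day. At day 21, 1 had an unadjusted p under 0.05, beside 3500 of the 10689 features. The family median was 0.13 at day 4 and -0.08 at day 21 (-0.1375 with each probe on its own). Sf3a2, the highest of them at day 21 with 0.30 ± 0.02 (adjusted p = 0.144), read 0.53, 0.06 and 0.88 at day 8, where array 2 lay far below the other 2. Sf3b1, which contacts the branch site, was the lowest at day 21 with -0.20 ± 0.10 (adjusted p = 0.18). U2af1 and U2af2 form the dimer that reads the end of the intron. At day 21 U2af1 had -0.27 ± 0.05 (adjusted p = 0.113) and U2af2 0.00 ± 0.17. There limma called neither (1 had an unadjusted p under 0.05, beside 3500 of the 10689 features).

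Of the 6 Prpf genes 2 were called, both at day 15 (beside 10.6% of all features) and in opposite directions. Prpf4, a protein of the U4/U6 snRNP, read -0.26, -0.9987 and -0.33 at day 15 and was lower (mean -0.53 ± 0.41, adjusted p = 0.0266). Array 2 was far below the other 2, and the call was lost without it (-0.30, adjusted p = 0.272) and on set 1 alone. Prpf4b, a kinase of the tri-snRNP, read 0.41, 0.44 and 0.26 and was higher (mean 0.37 ± 0.10, adjusted p = 0.0196). This mean joins 3 probes that disagreed, with day 15 means of 0.96, 0.24 and -0.10, the widest gap among the 8 genes with more than 1 probe, and the call was lost without day 15 arrays 1 or 2 (0.33 to 0.42, adjusted p up to 0.164). At day 21 Prpf4 was the lowest of the family at -0.22 ± 0.15 and Prpf40b, related to a U1-associated protein, the highest at 0.16 ± 0.11 (adjusted p = 0.216). Prpf8, which lies at the catalytic centre, had -0.15 ± 0.06 (adjusted p = 0.134).

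The SR proteins had the highest median of the 8 families at day 4, 0.24, with array medians of 0.22, 0.15 and 0.28, and -0.07 at day 21 (-0.0134 without array 1 of that day and -0.1237 without array 3). All 8 genes had a positive day 4 mean, and limma called 0 of them there. An unadjusted p under 0.05 was found for 4 of the 8, beside 1081 of the 10689 features. That family difference was not tested. Srsf10, a splicing regulator that represses splicing when stripped of phosphate, read 0.21, 0.41 and 0.31 at day 4, 0.32, 0.17 and 0.19 at day 8, 0.22, 0.13 and -0.18 at day 15 and -0.12, -0.17 and -0.23 at day 21. All 6 arrays of days 4 and 8 were above 0 and all 3 of day 21 below it. Against ES its day 21 mean of -0.17 ± 0.05 did not pass (adjusted p = 0.178).

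Srsf4 was the 1 SR gene called against ES, at day 21 (beside 18.7% of all features). It read -0.02, 0.20 and 0.17 at day 4 and 0.25, 0.29 and 0.32 at day 21, and the 3 day 21 arrays lay above all arrays of days 4 and 8 (highest 0.20). It was higher at day 21 (mean 0.29 ± 0.04, adjusted p = 0.0465). That call was lost without day 4 arrays 1 or 3, day 8 arrays 2 or 3, day 15 array 2 or day 21 arrays 1, 2 or 3 (0.27 to 0.30, adjusted p up to 0.158) and under both rescalings. The call was also lost in models with a term for the array set or with the replicate number as a block, in a fit of day 21 alone, and on set 1 alone. Srsf3, the smallest SR protein, was the lowest at day 21 with -0.26 ± 0.19 (adjusted p = 0.128). Srsf9 read -1.53, 0.10 and 0.03 at day 8, the widest span of any splicing gene within a day, so its day 8 mean of -0.47 rests on array 1.

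**Figure D3:**
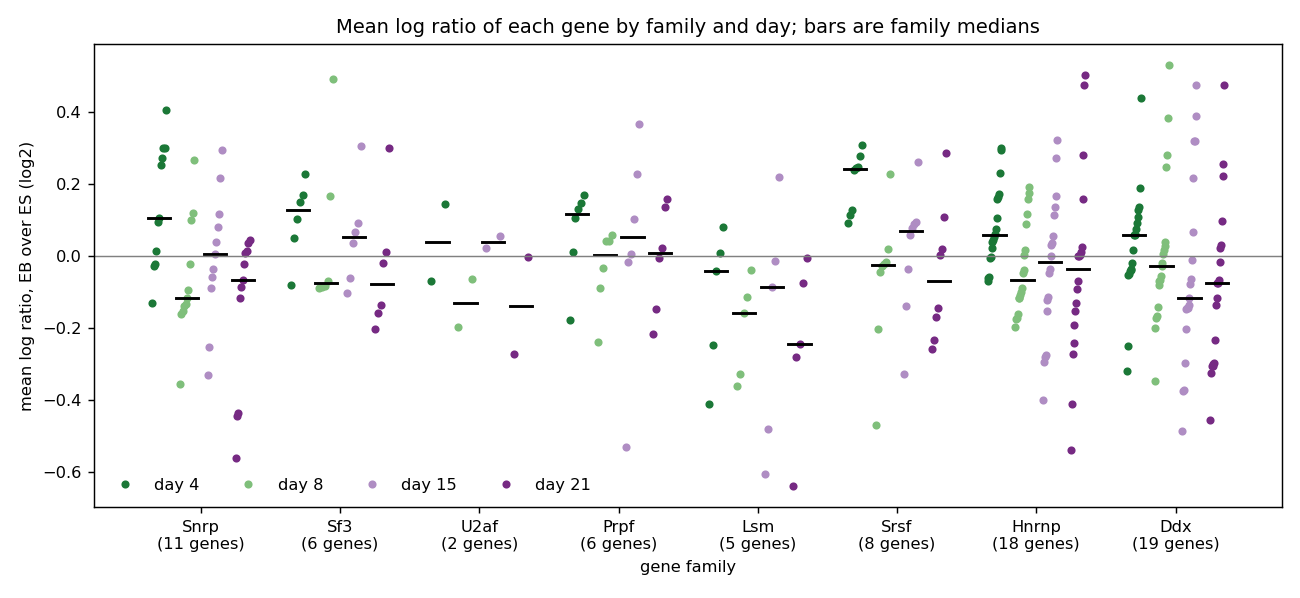
Mean log2 ratio EB over ES (y axis) of each of the 75 genes, as 1 point per gene and day, by family (x axis), with colours for days 4, 8, 15 and 21 and black bars for family medians. Nearly all points lie within 0.5 of 0, the Srsf median is 0.24 at day 4, and the Lsm median is -0.24 at day 21.

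The hnRNPs split both ways. At day 21, 2 of 18 were higher (beside 8.78% of all features) and 2 lower (beside 9.93%). The family median was -0.04 (-0.0727 to -0.0078 over the omissions) after 0.06 at day 4. The day 4 median was 0.0234, 0.224 and 0.0024 without arrays 1, 2 and 3 of that day, 0.1383 after quantile normalization and 0.1119 at equal spread. Hnrnpr, an RNA-binding protein, read 0.07, -0.08 and 0.23 at day 4, 0.09, 0.18 and 0.21 at day 8, 0.27, 0.21 and 0.02 at day 15 and 0.47, 0.53 and 0.51 at day 21. The day 21 arrays were close to each other and above all 9 earlier arrays. It was higher at day 21 (mean 0.50 ± 0.03, adjusted p = 0.0011), a call kept without each of the 12 arrays and on set 1 alone (0.50, adjusted p = 0.00773). Hnrnph1, which binds runs of G, read 0.19, 0.08 and 0.61 at day 4 and 0.49, 0.39 and 0.54 at day 21, and day 4 array 3 was higher than any day 21 array. It was higher at day 21 (mean 0.47 ± 0.08, adjusted p = 0.0159), and the call was lost without day 21 arrays 1, 2 or 3 (0.44 to 0.52, adjusted p up to 0.0916) and under both rescalings. Its close relative Hnrnph2 had 0.00 ± 0.09.

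Hnrnpa3, of the group that includes the abundant hnRNP A1, read -0.03, -0.21 and 0.23 at day 4, -0.07, -0.22 and -0.24 at day 8, -0.38, -0.64 and -0.18 at day 15 and -0.72, -0.56 and -0.34 at day 21. All 9 arrays from day 8 on were below 0. It was lower at day 15 (mean -0.40 ± 0.23, adjusted p = 0.0324) and at day 21 (-0.54 ± 0.19, adjusted p = 0.00459). The day 21 call was kept on set 1 alone and lost without day 21 array 1 (-0.64 to -0.45, adjusted p up to 0.059). The day 15 call was lost without day 15 arrays 1 or 2 (-0.51 to -0.28, adjusted p up to 0.292). Hnrnpf, which binds the same G-rich letters as Hnrnph1, read -0.45, -0.36 and -0.42 at day 21 after 0.15, -0.45 and 0.28 at day 4, where array 2 was as low as day 21. It was lower at day 21 (mean -0.41 ± 0.05, adjusted p = 0.0272), a call lost without day 21 arrays 1, 2 or 3 (-0.44 to -0.39, adjusted p up to 0.136), under both rescalings and on set 1 alone. The abundant hnRNPs Hnrnpa1, Hnrnpc and Hnrnpk had day 21 means of -0.09, 0.02 and 0.01, none of them called.

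Of the 19 Ddx genes 7 were called against ES, 4 at day 15 (beside 10.6% of all features) and 5 at day 21 (beside 18.7%). The family was not tested against all features. Ddx39a and Ddx39b are close copies that load onto spliced messenger RNA for export, and Ddx39b also acts in building the spliceosome. Ddx39a read 0.18, -0.21 and 0.08 at day 4, -0.14, -0.20 and -0.26 at day 8, -0.32, -0.52 and -0.28 at day 15 and -0.52, -0.45 and -0.39 at day 21, with all 9 arrays from day 8 on below 0. It was lower at day 15 (mean -0.37 ± 0.13, adjusted p = 0.0158) and at day 21 (-0.46 ± 0.07, adjusted p = 0.00332). The day 21 call was kept without each of the 12 arrays and on set 1 alone (-0.49, adjusted p = 0.0257), and the day 15 call was lost without day 15 arrays 1 or 2 (-0.42 to -0.30, adjusted p up to 0.173). Ddx39b read 0.53, 0.37 and 0.41 at day 4, -0.01, 0.08 and 0.01 at day 8, 0.53, 0.43 and 0.21 at day 15 and 0.36, 0.15 and 0.25 at day 21. Its 9 arrays of days 4, 15 and 21 were all above 0 and those of day 8 near it. It was higher at day 15 (mean 0.39 ± 0.16, adjusted p = 0.0083) and day 21 (0.26 ± 0.10, adjusted p = 0.0387), whereas the similar day 4 mean of 0.44 ± 0.08 did not pass (adjusted p = 0.101). The day 15 call was lost without day 15 arrays 1 or 2 (0.32 to 0.48, adjusted p up to 0.0987) and after quantile normalization. The day 21 call was lost without day 8 array 2, day 15 array 2 or day 21 arrays 1, 2 or 3 (0.20 to 0.31, adjusted p up to 0.225), under both rescalings and on set 1 alone. The difference between the 2 copies was not tested.

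A further 4 called genes, Ddx21, Ddx52, Ddx55 and Ddx56, are helicases known from ribosome assembly. Ddx21, which acts in the nucleolus, read -0.49, -0.74 and -0.23 at day 15 and -0.28, -0.33 and -0.28 at day 21. It was lower at day 15 (mean -0.49 ± 0.25, adjusted p = 0.0303, lost without day 15 arrays 1 or 2 (-0.61 to -0.36, adjusted p up to 0.267)), and its day 21 mean of -0.30 ± 0.03 did not pass (adjusted p = 0.125). Ddx55 read -0.26, -0.35 and -0.31 at day 21, all below 0, and was lower there (mean -0.31 ± 0.04, adjusted p = 0.0259). Ddx56 read -0.37, -0.47 and -0.08, with array 3 near 0, and was lower (mean -0.31 ± 0.21, adjusted p = 0.0401). Ddx52 read 0.36, 0.61 and 0.46, all above 0, and was higher (mean 0.47 ± 0.13, adjusted p = 0.0251). All 3 day 21 calls were lost under both rescalings. The Ddx52 call was lost without day 21 arrays 1, 2 or 3 (0.41 to 0.53, adjusted p up to 0.154) and on set 1 alone, the Ddx55 call without day 21 arrays 1, 2 or 3 (-0.33 to -0.29, adjusted p up to 0.13), and the Ddx56 call without day 8 array 2, day 15 array 2 or day 21 arrays 1 or 2 (-0.42 to -0.22, adjusted p up to 0.245). Other helicases of ribosome assembly, named after their values were seen, were not called at day 21: Ddx10 had -0.33 ± 0.38 (adjusted p = 0.117), Ddx27 -0.30 ± 0.30 (adjusted p = 0.117), Ddx51 -0.14 ± 0.23 (adjusted p = 0.478) and Ddx47 0.22 ± 0.21 (adjusted p = 0.0823).

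Ddx6, which holds messenger RNAs silent and promotes their decay, read 0.75, 0.59 and 0.09 at day 15 and -0.23, -0.21 and 0.21 at day 21. The value of day 15 array 3, of set 2, was near 0 where the other 2 were high. It was higher at day 15 (mean 0.47 ± 0.35, adjusted p = 0.0285), a call lost without day 15 arrays 1 or 2 (0.34 to 0.67, adjusted p up to 0.231) and after quantile normalization. Ddx20, which works in the complex that assembles Sm rings, had day means between -0.03 and -0.01 at all 4 days. The germ cell helicase Ddx4 had -0.08 ± 0.05 at day 21. Ddx60, an antiviral factor named after its values were seen, had 0.53 ± 0.11 at day 8, the largest positive day mean of the 75 (adjusted p = 0.0528).

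**Figure D4:**
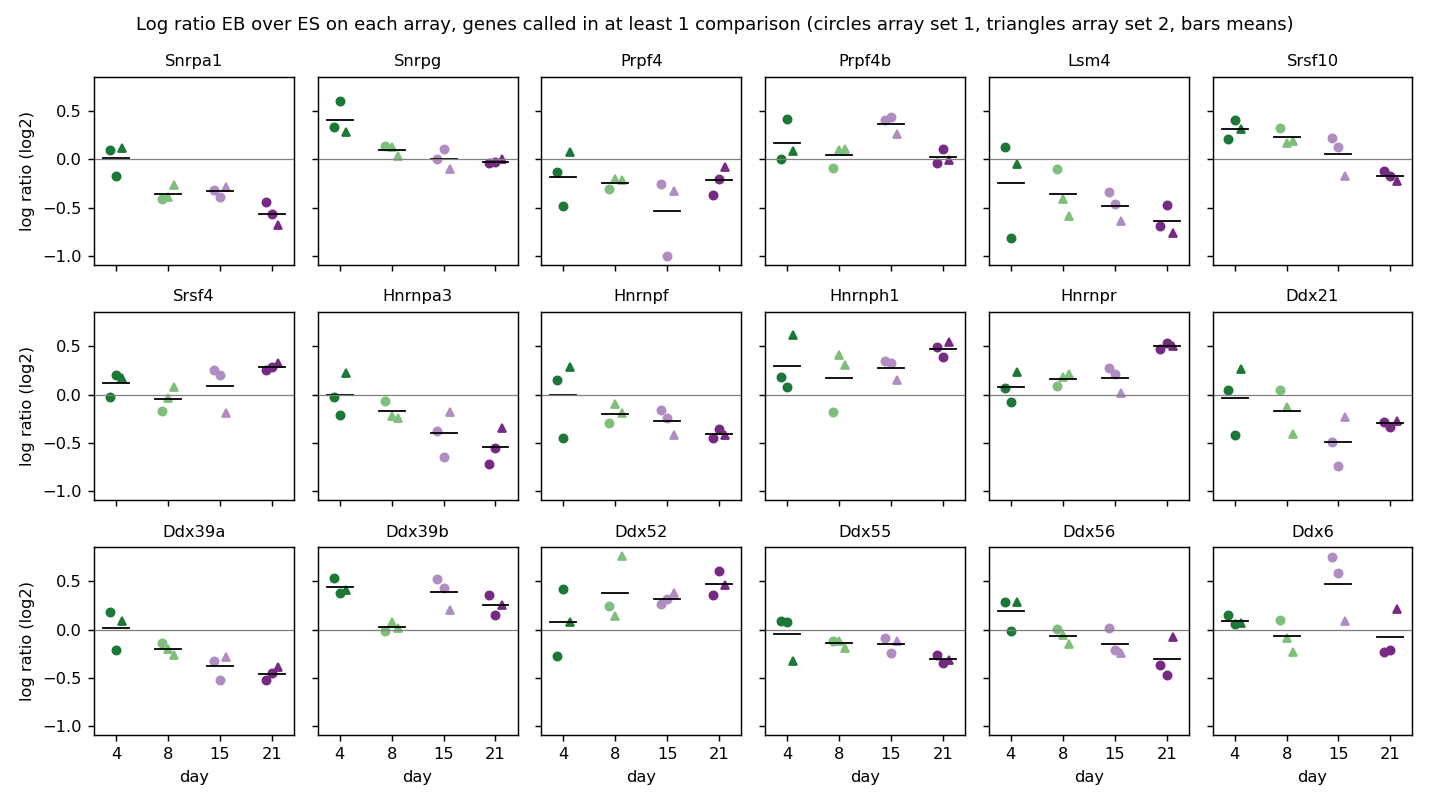
Log2 ratio EB over ES (y axis) on every array by day (x axis) for the 18 genes called in at least 1 comparison, 1 panel per gene, with circles for array set 1, triangles for set 2 and bars for day means. Snrpa1, Hnrnpa3 and Ddx39a reach day 21 means of -0.56, -0.54 and -0.46, Hnrnpr ends at 0.50 with 3 arrays close together, and the Prpf4 and Ddx6 panels show day 15 means set by unequal arrays.

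Comparisons between days remove dye effects that are alike on all arrays. Day 21 differed from day 4 in 6 of the 75 genes (8%, beside 5.84% of all features), 1 higher (1.33%, beside 2.62%) and 5 lower (6.67%, beside 3.22%). The lower genes were Snrpa1 (-0.58, adjusted p = 0.0113), Ddx56 (-0.49, adjusted p = 0.048), Srsf10 (-0.48, adjusted p = 0.0336), Ddx39a (-0.47, adjusted p = 0.0384) and Snrpg (-0.43, adjusted p = 0.0382). The higher gene was Hnrnpr (0.43, adjusted p = 0.04). In all 6 genes the 3 arrays of day 21 did not overlap those of day 4, which adds no support because the same values picked these genes. Over all features, 12.2% had day 21 arrays wholly below those of day 4 and 12.6% wholly above. Hnrnpa3 had a difference of -0.54 and missed the threshold (adjusted p = 0.0578), as did Srsf3 with -0.51 (adjusted p = 0.087).

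Single arrays moved this count from 0 without day 4 array 1 (beside 2.49% of all features) to 10, all lower, without day 4 array 2 (beside 5.1%). It was 1 without day 8 array 2 (beside 4.32%), day 21 array 1 (beside 2.09%) or day 21 array 2 (beside 2.47%). It was 2 without day 15 array 1 (beside 4.88%) and 3 without day 15 array 2 (beside 4.58%). Set 1 alone called 2 (beside 7.76% of all features), of which 1 (Hnrnpr) was among the 6. Quantile normalization gave 3, all lower (beside 3.5%), and equal spread gave 2, both lower (beside 2.86%). The calls of Snrpg and Srsf10 were kept under both rescalings. Snrpa1 was kept after quantile normalization but lost at equal spread, on set 1 alone and without day 4 array 1 (-0.67 to -0.52, adjusted p up to 0.0538). Those of Hnrnpr, Ddx39a and Ddx56 were lost under both rescalings, and that of Hnrnpr also with the replicate number as a block. Ddx39a was lost without day 4 arrays 1 or 3, day 8 array 2, day 15 array 1 or day 21 arrays 1, 2 or 3 (-0.59 to -0.39, adjusted p up to 0.151). Srsf10 was lost without day 4 arrays 1, 2 or 3, day 8 array 2 or day 21 arrays 1, 2 or 3 (-0.53 to -0.43, adjusted p up to 0.0967). Snrpg was lost without day 4 arrays 1 or 2, day 8 array 2, day 15 arrays 1 or 2 or day 21 arrays 1, 2 or 3 (-0.49 to -0.33, adjusted p up to 0.128). Hnrnpr was lost without day 4 arrays 1 or 2, day 8 arrays 2 or 3, day 15 arrays 1 or 2 or day 21 arrays 1, 2 or 3 (0.35 to 0.51, adjusted p up to 0.122). Ddx56 was lost without day 4 arrays 1 or 3, day 8 arrays 1, 2 or 3, day 15 arrays 1 or 2 or day 21 arrays 1 or 2 (-0.61 to -0.41, adjusted p up to 0.174).

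Days 15 and 21 together differed from days 4 and 8 in 2 genes, both lower (2.67%, beside 5.73% of all features called, 2.98% higher and 2.76% lower). They were Srsf10 (-0.32, adjusted p = 0.0405) and Ddx39a (-0.32, adjusted p = 0.0448). Each was kept without 2 of the 12 arrays only: Srsf10 was lost without day 4 arrays 1, 2 or 3, day 8 arrays 1, 2 or 3, day 15 array 2 or day 21 arrays 1, 2 or 3 (-0.36 to -0.27, adjusted p up to 0.102), and Ddx39a without day 4 arrays 1 or 3, day 8 arrays 1, 2 or 3, day 15 arrays 1 or 2 or day 21 arrays 1, 2 or 3 (-0.38 to -0.28, adjusted p up to 0.121). The count ran from 0 to 4 over the omissions, 4 being without day 4 array 2 (beside 5.6% of all features). Between neighbouring days limma called 0 of 75 from day 8 to day 15 (0.178% of all features called, 0.131% higher and 0.0468% lower). There 7 of the 75 had an unadjusted p under 0.05, beside 985 of the 10689 features. From day 15 to day 21 limma also called 0 (0.00936% of all features called), and 5 had an unadjusted p under 0.05, beside 674 of the 10689. The moderated F-test of any difference among the days called 0 (2.9% of all features called), and Snrpa1 came nearest (adjusted p = 0.0552). Its unadjusted p was under 0.05 for 17 of the 75, beside 1676 of the 10689 features.

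Genes of the same machinery outside the naming rule were taken from 4 lists. Of 69 core spliceosome genes 38 were measured, and 2 of the 38 were lower at day 15 (beside 4.9% of all features). At day 21, 10 of the 38 were lower (beside 9.93%) and none higher (beside 8.78%). Between days 4 and 21, 3 of the 38 were lower (beside 3.22%). The median went from 0.06 at day 4 to -0.12 at day 21. At day 21 Dhx16, a helicase of the activated spliceosome, read -0.79, -0.81 and -0.42 (mean -0.68 ± 0.22, adjusted p = 2.95e-04). Eftud2, a GTPase of the U5 snRNP, read -0.90, -0.82 and -0.35 (mean -0.69 ± 0.30, adjusted p = 0.00147). Rbm8a of the exon junction complex had -0.69 ± 0.29 (adjusted p = 0.0083), and Cdc5l of the Prp19 complex had -0.48 ± 0.30 (adjusted p = 0.00615). Of 11 genes for the assembly of Sm rings 7 were measured. At each of days 15 and 21, 2 of the 7 were lower (beside 4.9% and 9.93% of all features). Between days 4 and 21, 1 of the 7 was lower (beside 3.22%), and 0 to 2 over the omissions of single arrays. Gemin2, a partner of SMN, was lower at day 15 (-0.46 ± 0.17, adjusted p = 0.0282) and day 21 (-0.74 ± 0.14, adjusted p = 0.00138), Clns1a, the chaperone of Sm proteins, was lower at day 15 (-0.33, adjusted p = 0.0311), and Prmt5, which methylates Sm proteins, at day 21 (-0.39, adjusted p = 0.0054). The day 21 calls of Dhx16, Eftud2, Gemin2 and Prmt5 were kept without each of the 12 arrays. That of Rbm8a was lost without day 21 array 3 (-0.83 to -0.54, adjusted p up to 0.0607) and that of Cdc5l without day 21 array 1 (-0.60 to -0.31, adjusted p up to 0.0699). At day 15 Gemin2 was lost without day 15 arrays 1, 2 or 3 (-0.51 to -0.37, adjusted p up to 0.115) and Clns1a without day 15 arrays 1 or 2 (-0.38 to -0.26, adjusted p up to 0.261). The 10 lower core genes of day 21 became 3, 4 and 5 without arrays 1, 2 and 3 of that day, and the 2 Sm assembly genes of day 15 became 0, 0 and 1 without arrays 1, 2 and 3 of that day. The 2 core genes of day 15 became 1 without array 1 or 2 of that day, and those called in either direction numbered 5 without day 4 array 2 or day 15 array 3. The 3 core genes lower between days 4 and 21 became 1 without day 4 array 1, day 8 array 2 or day 21 array 1 or 2, 2 without day 4 array 3, day 15 array 1 or 2 or day 21 array 3, and 6 without day 4 array 2.

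All 7 kinases of SR proteins were measured, and 2 of the 7 were lower at each of days 15 and 21 (beside 4.9% and 9.93% of all features). Between days 4 and 21, 2 of the 7 were lower (beside 3.22%), and 0 to 2 over the omissions of single arrays. Srpk2 read -0.37, -0.41 and -0.58 at day 21 and was lower at day 15 (-0.40, adjusted p = 0.0129) and day 21 (-0.45, adjusted p = 0.00387). Clk2 was lower at day 21 (-0.29, adjusted p = 0.0158) and Clk1 at day 15 (-0.33, adjusted p = 0.0426). The day 21 call of Srpk2 was kept without each of the 12 arrays, and its day 15 call was lost without day 15 array 2 (-0.47 to -0.36, adjusted p up to 0.131). Clk2 was lost without day 21 arrays 1 or 2 (-0.33 to -0.26, adjusted p up to 0.107) and Clk1 without day 4 array 3, day 8 array 3, day 15 arrays 1, 2 or 3 or day 21 arrays 1 or 2 (-0.37 to -0.30, adjusted p up to 0.25). Of 58 further RNA-binding splicing regulators 43 were measured. Here 7 of the 43 were higher and 2 lower at day 21 (beside 8.78% and 9.93% of all features). At day 15, 3 of the 43 were higher (beside 5.66%). Between days 4 and 21, 1 of the 43 was higher and 2 were lower (beside 2.62% and 3.22%). Over the omissions of single arrays these ran from 0 to 2 and from 0 to 3. Mbnl3, of the muscleblind proteins, read 1.20, 0.77 and 0.43 at day 21 (mean 0.80 ± 0.38, adjusted p = 0.00387). Rbfox1, a tissue-specific exon regulator, read 1.04, 1.38 and -0.02, with array 3 near 0 beside 2 high arrays (mean 0.80 ± 0.73, adjusted p = 0.0447). Rbm3, a cold-inducible RNA-binding protein, had 0.50 ± 0.07 (adjusted p = 0.00152), and Tia1, which binds U-rich introns, 0.42 ± 0.19 (adjusted p = 0.0307). The lower pair was Rbm25 at -0.44 ± 0.22 (adjusted p = 0.00627) and Tardbp at -0.42 ± 0.16 (adjusted p = 0.00868). Rbm3 was kept without each of the 12 arrays. Mbnl3 was lost without day 21 array 1 (0.60 to 0.98, adjusted p up to 0.0546), Rbfox1 without day 4 arrays 1, 2 or 3, day 15 arrays 1 or 2 or day 21 arrays 1 or 2 (0.51 to 1.21, adjusted p up to 0.304), Tia1 without day 21 arrays 1, 2 or 3 (0.34 to 0.52, adjusted p up to 0.145), Rbm25 without day 21 arrays 1 or 2 (-0.57 to -0.35, adjusted p up to 0.0728) and Tardbp without day 21 array 3 (-0.48 to -0.33, adjusted p up to 0.0607). Without day 21 arrays 1 and 2 in turn, 1 and 2 regulators were higher at that day and 1 was lower each time, and without day 15 arrays 1, 2 and 3 in turn 0, 0 and 6 were higher at day 15. The rescalings of the arrays and the array sets alone were not run for these 4 lists. At day 21 the 8 measured mesenchyme markers were all higher (median 1.57), as were 3 of 5 heart muscle markers (median 0.57), while of 6 neuron markers 0 were higher and 1 lower (median 0.08). Their part in the values of these regulators was not tested. Differences between these lists and the 75 genes were not tested, and over all features 8.78% were higher and 9.93% lower at that day.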

How the data were processed

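RNA of ES cells and of EB cells of 4 days was measured on 12 arrays with 2 channels each, 3 per day, grouped by the sample titles. The authors deposited normalized log ratios, read here as log2 values; per the labels' protocols, total RNA was made into cDNA and transcribed with dye-labelled UTP. The normalization, scanner, background correction and filter on dim spots are not given in the sources used here, signal intensities were not used, and the number of arrays limits the precision. Gene names came from the platform annotation, which can be old, and all 75 Entrez IDs matched RefSeq's table. Probes of a gene were averaged. R 4.3.3 with limma 3.58.1 (lmFit, eBayes) fitted a mean per day to 10689 features over 12 arrays (8 residual and 4.35 prior degrees of freedom). Day means were tested against 0, with the ES channel as 1 control sample, and days against each other, two-sided, with Benjamini-Hochberg adjustment over all features and a threshold of 0.05. The fit was tested on simulated data. Figures used matplotlib 3.10.9.

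The naming rule uses no measured value, but the gene family, the other gene lists and the tests were chosen with earlier results of these data known. Named by rule were every gene called in any comparison (18), the highest and lowest of each family at day 21, genes whose probes differed by over 1 at day 21 (0), and genes whose arrays of a day spanned over 1.5 (1), 27 in all, and up to 4 called genes each way of each other list. Other genes of the 75 were described outside this rule, with their values available. These were all Sm ring genes except Snrpg, and Prpf8, Hnrnph2, Hnrnpa1, Hnrnpc, Hnrnpk, Ddx20 and Ddx4. Those said above to be named after their values were seen belong here too. Alternatives were quantile normalization, scaling to an equal median absolute deviation, array weights, the replicate number as a block, the array set as a term, single probes, a robust prior, each day alone and omission of each array. Array sets taken alone, and the omission of arrays for the other lists, were chosen after seeing the data.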

Additional observations from a re-analysis of the deposited data

Results flagged for a closer look

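Between days 4 and 21, the change relative to ES differed in 6 genes by limma's test of the difference, with 3 arrays on each side. It was -0.58 for Snrpa1 (adjusted p = 0.0113), -0.43 for Snrpg (adjusted p = 0.0382), -0.48 for Srsf10 (adjusted p = 0.0336), -0.47 for Ddx39a (adjusted p = 0.0384), -0.49 for Ddx56 (adjusted p = 0.048) and 0.43 for Hnrnpr (adjusted p = 0.04). Between the early days (4 and 8) and the late days (15 and 21), 2 genes differed by the same kind of test: Srsf10 by -0.32 (adjusted p = 0.0405) and Ddx39a by -0.32 (adjusted p = 0.0448). Each day has 3 arrays, so single arrays were not tested for standing apart, and the effect of leaving out each in turn is described above.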

How the results depend on the processing

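All 29 calls of named genes kept their sign under every setting run with the probes of a gene averaged, and 3 (Snrpa1, Hnrnpr and Ddx39a at day 21 against ES) were kept without each of the 12 arrays. Signs of the calls were not checked on single probes. A Prpf4b probe had a day 15 mean of -0.10 where the called mean was 0.37. Counts of called genes moved more. The percentages give the share of all features called under the same setting. Quantile normalization gave 5 at day 4 (0 as reported; 1.28%), 4 at day 21 (12; 9.99%), 3 for day 21 against day 4 (6; 3.5%) and 1 for any difference between days (0; 1.91%). Scaling to an equal spread gave 2 at day 4 (0.477%), 2 at day 8 (1; 5.44%), 4 at day 21 (9.14%) and 2 for day 21 against day 4 (2.86%). Array weights gave 3 at day 4 (0.879%), 2 at day 8 (9.35%), 23 at day 15 (8; 14 higher and 9 lower; 30.4%), 16 at day 21 (24.5%), 17 for day 21 against day 4 (12.6%), 5 for day 15 against day 8 (0; 5.44%), 11 for late against early days (2; 15.7%) and 15 for any difference (13.2%). The array set as a term gave 2 at day 4 (0.739%), 2 at day 8 (4.55%) and 1 for late against early days (6.67%). Set 1 alone gave 2 for day 21 against day 4 (7.76%). Counts that rest on the single day 8 array of set 1 are not given here. Those of set 2 are left out too, since most of its days have 1 array. Each day alone gave 0 at day 8 (0.00936%) and 0 at day 15 (2.42%). The cause was not tested, beyond the fewer arrays in the fits of a single set or day. Without each array in turn the counts ran from 0 to 2 at day 8, 0 to 12 at day 15, 3 to 17 at day 21, 0 to 10 for day 21 against day 4, 0 to 1 for day 15 against day 8, 0 to 4 for late against early days and 0 to 3 for any difference. Over those omissions the share of all features called ran from 2.2% to 14.5% at day 15 and from 7.04% to 20.8% at day 21. For day 21 against day 4 it ran from 2.09% to 7.23%.

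Medians moved as follows, and several family medians near 0 changed sign without single arrays (Prpf at day 15, for example). Over the 75 genes at day 21 (-0.0757) it was -0.0625 after quantile normalization and -0.0589 at equal spread. Quantile normalization gave 0.28 for Snrp at day 4 (0.11), -0.20 for Lsm at day 21 (-0.24) and 0.31 for Srsf at day 4 (0.24), equal spread gave -0.20 for Lsm at day 21, and single probes gave -0.14 for Sf3 at day 21 (-0.08). Omitting arrays gave 3e-04 to 0.1956 for Snrp at day 4, -0.0884 to -0.0627 for Snrp at day 8, 0.0439 to 0.1274 for Prpf at day 4, -0.0015 to 0.079 for Prpf at day 15, -0.2358 to -0.2019 for Lsm at day 21, -0.1237 to -0.0134 for Srsf at day 21, -0.0729 to -0.0322 for Hnrnp at day 8, -0.1278 to -0.0394 for Ddx at day 15 and -0.1744 to -0.0224 for Ddx at day 21. Whether array numbers pair the arrays is not settled. Deviations of same-numbered arrays correlated between -0.14 and 0.39 (median 0.08), over 0.1 in 8 of 18 pairs. For other pairs the range was -0.32 to 0.19 (median -0.03), over 0.1 in 5 of 36. Most same-numbered arrays were also of the same array set. The same-numbered pairs of unlike sets all held day 8 array 2, with -0.14 (day 4), -0.04 (day 15) and -0.10 (day 21). Pairs of unlike number within a set ran from -0.09 to 0.19. Whether the correlations follow the number or the set was not tested. The replicate block gave 2 at day 8 (beside 3.27% of all features), 4 for late against early days (beside 5.59%) and 1 for any difference (beside 2.53%). It left the other counts within 1.5 times, and ended 2 of the 29 calls, Srsf4 at day 21 against ES and Hnrnpr at day 21 against day 4. Filters on dim probes and other background corrections were not run, since intensities were not used.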
